A study of Mus musculus with 12 samples.

Results

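A set of 9 genes of the tight junction was followed in tissue beside an experimental intracerebral hemorrhage (ICH) and in sham-operated brain of the mouse: Cldn5, Cldn12, Ocln, Marveld2, F11r, Jam2, Esam, Tjp1 and Cgn. They were taken by gene symbol, and all 9 of the 9 were found among the 21956 genes of the count table. No measured value served as the rule, but the set was chosen with earlier results of these data known. Bulk poly(A) RNA was sequenced in 12 libraries, with 3 in each of 4 groups. Sham-Fabp4fl_fl and ICH-Fabp4fl_fl came from mice with floxed Fabp4 alleles, and Sham-Fabp4CKO and ICH-Fabp4CKO came from floxed mice that also carried TMEM119-creERT2. In these, daily tamoxifen was given for a week to delete Fabp4 in microglia, and surgery followed after a further interval without tamoxifen. Hemorrhage was made with collagenase in the right striatum, and tissue was taken 48 h later from around the hematoma, within a radius of 1 to 2 mm. Sham mice had the procedure without the injury. Whether the Fabp4fl_fl mice received tamoxifen and how old the mice of these groups were is not given in the sources used here. The genotype comparison therefore holds Cre and possibly tamoxifen together with the loss of Fabp4, and these cannot be told apart. Nothing in the labels says beyond separate sample names that each library is a separate mouse, so p-values measure the spread between these samples.

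Tight junctions join the edges of neighboring endothelial cells in brain capillaries and restrict the passage of solutes between the cells, which is the structural base of the blood-brain barrier (BBB). Claudins form the sealing strands, occludin and tricellulin (the product of Marveld2) belong to the MARVEL family and sit in the same strands or at corners where several cells meet, and the junctional adhesion molecules (JAMs) are immunoglobulin-like proteins beside them. Zonula occludens-1 (the product of Tjp1) and cingulin (the product of Cgn) lie on the cytoplasmic side and tie the strands to the actin cytoskeleton. Several of these genes are also used outside endothelium, in glia, epithelia, leukocytes or platelets.

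Each library held 15650822 to 22406226 counts, and values below are counts per 1000000 counts (CPM) on library sizes scaled by the trimmed mean of M-values (TMM). A pair of libraries stood apart by the share of counts on single gene groups. ICH-Fabp4fl_fl replicate 1 had 16.3% of its counts on mitochondrial genes, against 7.9% to 11.9% in the others. ICH-Fabp4CKO replicate 1 had 1 count on Y-linked genes, against 1302 to 2251 in the other 11 libraries, and Xist was at 0 in all 12. ICH-Fabp4CKO replicate 2 differed most from its group over all genes, with a chi-square per gene of 152 and 319 against its mates and of 50.7 between them, and results that turn on it are given with and without it. The targeted gene, Fabp4, had 46, 63 and 24 counts in ICH-Fabp4fl_fl and 5, 3 and 10 in ICH-Fabp4CKO, with 1 to 2 in Sham-Fabp4fl_fl and 0 in the 3 Sham-Fabp4CKO libraries. The 12 pan-endothelial marker genes summed to 325 to 345 CPM in Sham-Fabp4fl_fl, 311 to 325 in Sham-Fabp4CKO, 728 to 1509 in ICH-Fabp4fl_fl and 411 to 587 in ICH-Fabp4CKO, and none of them was at 0 in any group. In bulk tissue, a different number of endothelial cells and a different amount of RNA per cell cannot be told apart.

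Promoter windows were read from RefSeq on GRCm38.p6 for 7 of the 9 genes (none for Jam2 and Esam), as the 250 bases before the start of transcription. The 4 below are shown because their genes had unlike patterns over the groups: Cldn5 (higher after ICH in Fabp4fl_fl, no call in Fabp4CKO), F11r (higher in both genotypes), Cldn12 (lower in both) and Cgn (lower in Fabp4fl_fl, no call in Fabp4CKO). Capitals mark the letters GGGCGG or their reverse complement, the core of the sites that SP and KLF family factors read. The windows lie at chr16:18776597-18776846 on the plus strand (Cldn5), chr1:171437311-171437560 on the plus strand (F11r), chr5:5514850-5515099 on the minus strand (Cldn12) and chr3:94786483-94786732 on the minus strand (Cgn), each written 5′ to 3′ along the gene.
Cldn5: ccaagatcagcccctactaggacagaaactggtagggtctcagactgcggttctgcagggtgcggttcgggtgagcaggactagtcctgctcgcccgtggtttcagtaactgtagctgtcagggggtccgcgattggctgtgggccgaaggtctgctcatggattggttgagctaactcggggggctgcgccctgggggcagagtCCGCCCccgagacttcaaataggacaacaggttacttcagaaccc
F11r: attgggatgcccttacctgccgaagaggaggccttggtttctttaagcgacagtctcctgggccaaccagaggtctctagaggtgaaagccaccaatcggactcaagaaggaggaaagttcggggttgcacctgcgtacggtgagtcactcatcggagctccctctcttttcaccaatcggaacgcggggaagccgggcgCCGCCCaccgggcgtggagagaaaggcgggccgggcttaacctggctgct
Cldn12: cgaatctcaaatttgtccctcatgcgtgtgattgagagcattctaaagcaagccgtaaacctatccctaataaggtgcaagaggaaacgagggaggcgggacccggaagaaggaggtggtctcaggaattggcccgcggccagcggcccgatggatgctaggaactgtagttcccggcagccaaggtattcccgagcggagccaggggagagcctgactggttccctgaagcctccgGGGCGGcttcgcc
Cgn: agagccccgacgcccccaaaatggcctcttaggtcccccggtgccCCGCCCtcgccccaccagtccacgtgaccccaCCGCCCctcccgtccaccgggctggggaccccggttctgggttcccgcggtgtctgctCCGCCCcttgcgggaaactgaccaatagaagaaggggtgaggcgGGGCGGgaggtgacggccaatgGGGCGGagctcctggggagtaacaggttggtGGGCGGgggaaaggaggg
GGGCGG lay in 10 of the 11 windows of the 7 genes, on either strand, and in 32.7% of the 32851 promoter windows of the table. The match lay 45 to 40 bases before the start in Cldn5 and 50 to 45 in F11r, and Cgn held 6 matches in a window with 70.4% G and C (59.6% in Cldn5, 60.0% in F11r, 58.8% in Cldn12 and a median of 52.4% over all windows). Other motifs were also searched on both strands. AGGAAG (ETS family) was in 2 of the 11 windows, the overlapping windows of Marveld2, and in 29.5% of all windows. CCACCC (KLF family) was in 2, of Ocln and Tjp1, and in 28.1% of all windows. The letters TATAAA, read by the TATA-binding protein, were in 2, the same overlapping windows of Marveld2, and in 12.4% of all windows. AACAAT (SOX family, 9.42% of all windows) and TCAAAG (TCF/LEF family, 13.8%) were in none of the 11. GGGCGG and CCACCC can overlap at their ends, and these matches describe the sequence alone.

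Per kilobase of exon, Cldn5 was the most abundant of the 9 transcripts in every group, with 17.4 ± 1.47 CPM per kb (SD, n = 3) in Sham-Fabp4fl_fl. Cldn12 at 15.1 ± 1.71 and Tjp1 at 14.4 ± 0.930 CPM per kb came next, with Cldn12 overlapping both neighbors (13.5 to 16.9 CPM per kb) while Cldn5 (15.7 to 18.3) lay above Tjp1 (13.4 to 15.3). Jam2 followed with 11.2 ± 2.11, then F11r with 5.17 ± 0.892 and Esam with 4.90 ± 0.284, which did not differ beyond their spread, and Ocln with 3.64 ± 0.106 CPM per kb. The lowest were Cgn at 0.916 ± 0.311 and Marveld2 at 0.279 ± 0.0281 CPM per kb. After ICH in Fabp4fl_fl mice Cldn5 stood alone at the top with 93.1 ± 38.0 CPM per kb. Tjp1 (25.2 ± 3.77), Esam (23.9 ± 10.9), F11r (23.2 ± 4.76) and Jam2 (20.4 ± 3.25) came next within their spread, above Cldn12 at 8.85 ± 2.22 CPM per kb. In ICH-Fabp4CKO the order was Cldn5 (21.0 ± 1.80), Tjp1 (20.9 ± 1.77) and F11r (18.5 ± 4.89), again within their spread, then Jam2 (11.7 ± 1.15) and Esam (9.50 ± 1.95 CPM per kb). Exon lengths came from GENCODE M21 and not from the annotation of the deposited table, so this order is approximate.

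The first comparison asked how the tight junction genes responded to ICH in mice that kept Fabp4. Of the 9 genes, 7 rose and 2 fell in ICH-Fabp4fl_fl against Sham-Fabp4fl_fl, with Cldn5, Esam and F11r increased 4.53- to 5.44-fold and Cldn12 and Cgn decreased (edgeR's quasi-likelihood test, Benjamini-Hochberg adjusted p under 0.05). The response was broad, however: 45.6% of the 14719 genes tested were called, 26.2% as higher and 19.3% as lower. The median log2 fold change was 0.89 over the 9 genes and 0.02 over all genes tested. All 9 genes had groups that did not overlap, as did 62% of all genes.

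**Figure D1:**
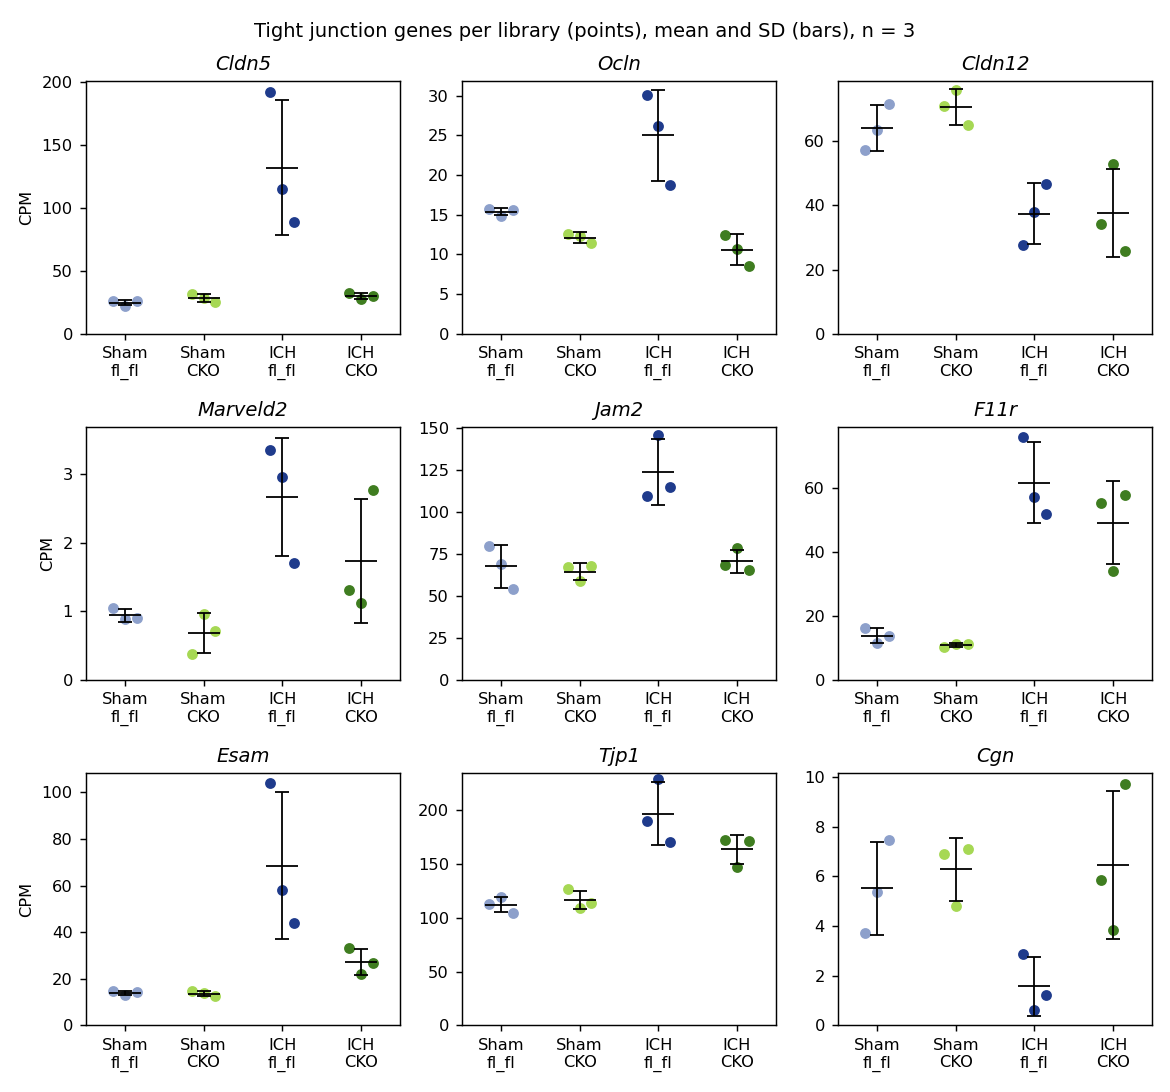
CPM (linear axis from 0) of the 9 genes in the 4 groups; each point is 1 library and the bars give the mean and SD of 3. Cldn5 sits between 88.4 and 192 CPM in ICH-Fabp4fl_fl and between 22.2 and 32.4 CPM in the other 3 groups.

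Among the strand-forming proteins, Cldn5 (ENSMUSG00000041378), the main claudin of brain endothelium, was at 25.9, 22.2 and 25.7 CPM in Sham-Fabp4fl_fl and at 192, 115 and 88.4 CPM in ICH-Fabp4fl_fl. Every ICH library was above every sham library, the highest being the one with the high mitochondrial share. The log2 fold change was 2.44 (SE 0.30, adjusted p = 0.00101), and it was 2.05 without that library (adjusted p = 0.000855). Cldn12 (ENSMUSG00000046798), a claudin that lacks the usual C-terminal motif for zonula occludens proteins, moved the other way. It was at 57.1, 63.4 and 71.5 CPM in sham tissue and at 27.7, 38.0 and 46.5 CPM after ICH, without overlap, and fell by 0.76 on the log2 scale (SE 0.20, adjusted p = 0.0199).

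Ocln (ENSMUSG00000021638), encoding occludin, went from 15.7, 14.9 and 15.6 CPM to 30.1, 26.2 and 18.8 CPM. All 3 ICH libraries were higher, the third by a small margin. The log2 fold change was 0.72 (SE 0.20, adjusted p = 0.0214), and the call was lost when any library other than ICH replicate 3 was left out (adjusted p up to 0.0867). Marveld2 (ENSMUSG00000021636), encoding tricellulin, was near the limit of detection, with 0.884 to 1.05 CPM in sham tissue and 3.35, 2.96 and 1.70 CPM after ICH. Its log2 fold change was 1.51 (SE 0.37, adjusted p = 0.0157) on 8 to 51 counts per library over the 4 groups. The calls of Marveld2 and Cldn12 were lost without Sham replicate 2 or 3 or ICH replicate 2, with adjusted p up to 0.065 and 0.0608.

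The 3 genes of the JAM family all rose. F11r (ENSMUSG00000038235), encoding JAM-A, which is found on platelets and leukocytes as well as on endothelium, was at 16.1, 11.4 and 13.8 CPM in sham tissue and at 75.9, 57.3 and 51.8 CPM after ICH. The groups lay far apart, with a log2 fold change of 2.18 (SE 0.21, 4.53-fold, adjusted p = 0.000498). The summed markers of monocytes and macrophages went from 1.58 to 4.69 CPM in sham tissue to 132 to 712 CPM after ICH, those of neutrophils from 0.884 to 1.63 to 17.5 to 45.3 CPM, and those of platelets from 2.25 to 3.15 to 17.3 to 55.8 CPM, and their part in the F11r value was not tested. Esam (ENSMUSG00000001946), an adhesion molecule of endothelial cells and platelets, was at 14.7, 13.1 and 14.2 CPM and then at 104, 58.1 and 43.8 CPM. Its libraries kept the order seen for Cldn5 after ICH, and its log2 fold change was 2.31 (SE 0.32, 4.95-fold, adjusted p = 0.00167). Without ICH replicate 1 the Esam value was 1.86 (adjusted p = 0.000978). Jam2 (ENSMUSG00000053062), encoding JAM-B, rose less, from 79.5, 68.8 and 54.0 CPM to 109.7, 146 and 115 CPM (log2 fold change 0.89, SE 0.19, adjusted p = 0.00987). In Jam2 the middle ICH library was the highest, and without it the adjusted p was 0.0504.

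On the cytoplasmic side, Tjp1 (ENSMUSG00000030516) rose from 113, 119 and 105 CPM to 191, 229 and 171 CPM, without overlap. The log2 fold change was 0.83 (SE 0.16, adjusted p = 0.00652). Cgn (ENSMUSG00000068876) fell by 1.79 on the log2 scale (SE 0.56, adjusted p = 0.0336). It was at 3.73, 5.36 and 7.46 CPM in sham tissue and at 2.89, 0.605 and 1.22 CPM after ICH, so that the groups did not overlap but the highest ICH library lay close to the lowest sham library. The Cgn call was lost without Sham replicate 2 or 3 or ICH replicate 2 or 3 (adjusted p up to 0.089). The calls of Cldn5, Esam, F11r and Tjp1 held with each of the 6 libraries left out in turn.

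In the same comparison the 12 endothelial markers rose in 12 of 12 genes, with a median log2 fold change of 2.01. Cldn5, Esam and F11r had values above that median, and Ocln, Tjp1, Jam2 and Marveld2 had values below it. Cldn12 and Cgn fell while the endothelial markers rose. Which cells the RNA came from was not tested, so for every gene of the set the word endothelial rests on the gene list. Choroid plexus markers summed to 860 to 3273 CPM in Sham-Fabp4fl_fl, 21.6 to 31.7 CPM in ICH-Fabp4fl_fl and 24.6 to 55.3 CPM in both Fabp4CKO groups. Cgn is also an epithelial gene, at 5.52 ± 1.87 CPM in Sham-Fabp4fl_fl and 6.28 ± 1.28 CPM in Sham-Fabp4CKO (SD, n = 3), and the part of choroid plexus tissue in its values was not tested.

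The second comparison asked the same of Fabp4CKO mice. Here 3 of the 9 genes rose and 1 fell in ICH-Fabp4CKO against Sham-Fabp4CKO, while 35.6% of 14737 genes tested were called (24.5% higher, 11.1% lower). Without ICH-Fabp4CKO replicate 2, 5 of the 9 were called, and over all genes 5203 were higher and 4896 lower (3605 and 1642 with it). F11r, Esam and Tjp1 were the genes that rose and Cldn12 the gene that fell. The median log2 fold change over the 9 genes was 0.15, and 0.01 over all genes tested. Groups that did not overlap were seen for 5 of the 9, against 62.4% of all genes.

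Cldn5 was at 31.5, 28.5 and 25.1 CPM in Sham-Fabp4CKO and at 32.4, 27.3 and 29.7 CPM in ICH-Fabp4CKO. The groups interleaved, with a log2 fold change of 0.09 (SE 0.14, adjusted p = 0.612) that ranged from 0.0040 to 0.16 with single libraries left out. Ocln was at 12.6, 12.4 and 11.4 CPM and then at 12.5, 10.7 and 8.60 CPM, also overlapping (log2 fold change -0.18, SE 0.18, adjusted p = 0.439). Jam2 stood at 67.0, 58.6 and 67.6 CPM and then at 68.0, 78.4 and 65.2 CPM (log2 fold change 0.15, SE 0.13, adjusted p = 0.357). For these 3 genes, each of which rose in Fabp4fl_fl mice, no change was detected in Fabp4CKO mice.

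F11r responded to ICH here as well, from 10.1, 11.2 and 11.01 CPM to 55.3, 34.2 and 57.9 CPM. Its log2 fold change of 2.21 (SE 0.22, 4.61-fold, adjusted p = 0.00495) was called with each library left out. In the same libraries the summed platelet markers were at 7.09 to 50.9 CPM after ICH against 1.37 to 1.72 CPM in sham tissue, and the monocyte and macrophage markers at 109 to 636 against 0.862 to 1.69 CPM. Neutrophil markers summed to 16.7 to 151 CPM after ICH against 0.331 to 1.36 CPM in sham tissue. The part of these cells in the F11r value was not tested. Esam went from 14.6, 13.7 and 12.6 CPM to 33.0, 21.9 and 26.8 CPM. Its groups did not overlap (log2 fold change 1.01, SE 0.18, adjusted p = 0.0121), and the call was lost when any of the 3 sham libraries was left out (adjusted p up to 0.0628).

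Tjp1 was at 126, 109.6 and 114 CPM in Sham-Fabp4CKO and at 172, 148 and 171 CPM in ICH-Fabp4CKO. It rose by 0.50 on the log2 scale (SE 0.13, adjusted p = 0.0288), without overlap. Cldn12 fell from 70.9, 75.8 and 64.8 CPM to 34.0, 52.7 and 25.9 CPM (log2 fold change -0.89, SE 0.27, adjusted p = 0.0452). The Tjp1 and Cldn12 calls were kept only when ICH-Fabp4CKO replicate 2 was the library left out, and were lost in the other 5 such fits, with adjusted p up to 0.113 and 0.132. Marveld2 was at 0.378, 0.953 and 0.703 CPM and then at 1.303, 1.12 and 2.77 CPM, higher in every ICH library but not called by edgeR's quasi-likelihood test (log2 fold change 1.36, SE 0.51, adjusted p = 0.0768). Marveld2 was called by DESeq2 (adjusted p = 0.048), by edgeR's exact test (adjusted p = 0.0416) and in the fit of all 12 libraries (adjusted p = 0.0359). With single libraries left out, edgeR's quasi-likelihood test called it only without ICH-Fabp4CKO replicate 2 (adjusted p = 0.0246). Cgn was at 6.90, 4.81 and 7.12 CPM in sham tissue and at 5.87, 3.84 and 9.71 CPM after ICH, with overlapping groups (log2 fold change 0.06, SE 0.36, adjusted p = 0.902). In this comparison 8 of the 12 endothelial markers rose, with a median log2 fold change of 0.86, above the values of Cldn5, Ocln, Jam2 and Tjp1.

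**Figure D2:**
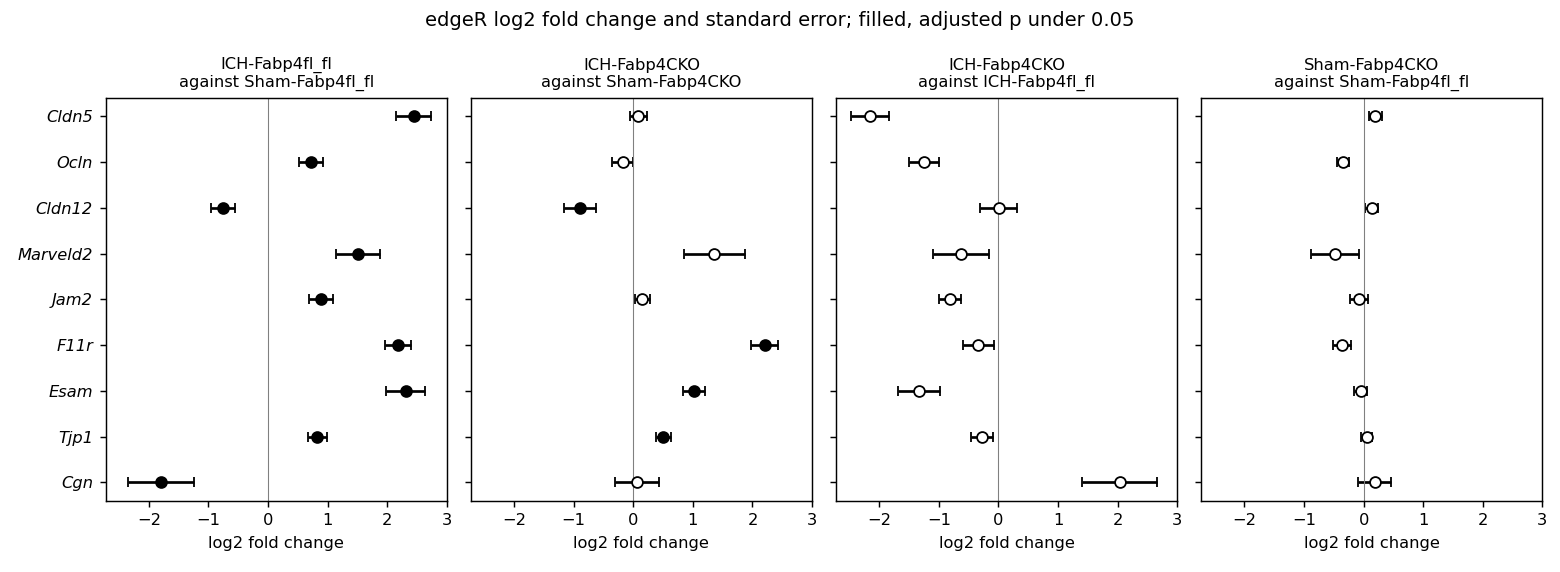
edgeR log2 fold changes (horizontal axis) of the 9 genes in the 4 comparisons, with standard errors as bars; filled points have an adjusted p under 0.05. All 9 points are filled for ICH against sham in Fabp4fl_fl, 4 in Fabp4CKO and 0 in either comparison of the genotypes.

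The third comparison set the genotypes against each other after ICH. No gene passed the adjusted threshold in ICH-Fabp4CKO against ICH-Fabp4fl_fl (0 of 14600, 0%), so that 0 of the 9 tight junction genes did, while 1777 genes (12.2%) had an unadjusted p under 0.05. By a second rule, an unadjusted p under 0.05 with a fold change of at least 1.5, 5 of the 9 genes were counted, 4 lower and 1 higher in ICH-Fabp4CKO, against 4.43% of all genes lower and 4.4% higher. The same 5 had groups that did not overlap, as did 19.8% of all genes. The median log2 fold change was -0.62 over the 9 genes and 0.06 over all genes tested. This count rests on unadjusted p-values. DESeq2 called 4 of the 9 genes and 255 higher and 323 lower genes in all, and edgeR's exact test called 3 of the 9 and 129 higher and 136 lower genes in all. Without ICH-Fabp4CKO replicate 2, edgeR's quasi-likelihood test called 2 genes higher and 0 lower, and none of the 9.

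Cldn5 had the smallest p of the 9. The ICH-Fabp4CKO libraries held 27.3 to 32.4 CPM, beside 88.4 to 192 CPM in ICH-Fabp4fl_fl. That is 4.45-fold lower (log2 fold change -2.15, SE 0.31, edgeR unadjusted p = 0.000316, adjusted p = 0.209), and it was the gene at rank 21 of 14600 by p. DESeq2 gave Cldn5 an adjusted p of 3.1e-07. Without the pair of libraries that stood apart, the Cldn5 log2 fold change was -1.84 (edgeR unadjusted p = 0.00158, adjusted p = 1).

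Ocln was 2.37-fold lower in ICH-Fabp4CKO (8.60 to 12.5 CPM beside 18.8 to 30.1 CPM; log2 fold change -1.25, SE 0.25, edgeR adjusted p = 0.295). Esam was 2.53-fold lower (21.9 to 33.0 CPM beside 43.8 to 104 CPM; log2 fold change -1.34, SE 0.35, edgeR adjusted p = 0.313). Jam2 was 1.76-fold lower (65.2 to 78.4 CPM beside 109.7 to 146 CPM; log2 fold change -0.81, SE 0.18, edgeR adjusted p = 0.295). These 3 genes and Cldn5 had lower values in every ICH-Fabp4CKO library than in any ICH-Fabp4fl_fl library. Without both libraries that stood apart the values were -1.22 for Ocln, -1.07 for Esam and -0.86 for Jam2, each with an edgeR adjusted p of 1. With single libraries left out, the smallest edgeR adjusted p was 0.101 for Ocln, 0.16 for Esam and 0.0967 for Jam2. Cgn lay 4.096-fold higher in ICH-Fabp4CKO, at 3.84 to 9.71 CPM beside 0.605 to 2.89 CPM (log2 fold change 2.03, SE 0.63, edgeR adjusted p = 0.341). The Cgn log2 fold change was 1.62 without ICH-Fabp4CKO replicate 3, 1.64 without ICH-Fabp4fl_fl replicate 2 and 2.80 without ICH-Fabp4fl_fl replicate 1.

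The remaining genes overlapped between the genotypes after ICH. Tjp1 differed by -0.27 (SE 0.18, edgeR adjusted p = 0.573) and F11r by -0.33 (SE 0.26, edgeR adjusted p = 0.627) on the log2 scale. Marveld2 differed by -0.62 with a wide error (SE 0.47, edgeR adjusted p = 0.622). Cldn12 was at the same mean level, 37.4 ± 9.40 CPM in ICH-Fabp4fl_fl and 37.6 ± 13.8 CPM in ICH-Fabp4CKO (SD, n = 3), and its log2 fold change of 0.0022 had an SE of 0.32, which leaves room for a difference in either direction. By the second rule 10 of the 12 endothelial markers were lower in ICH-Fabp4CKO, with a median log2 fold change of -1.26, and so were 6 of 6 oligodendrocyte markers (15804 to 21809 CPM in ICH-Fabp4fl_fl and 6127 to 10100 CPM in ICH-Fabp4CKO). The part of the cell composition of the dissected tissue in the lower values of Cldn5, Ocln, Esam and Jam2 was not tested by these counts.

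In sham tissue few genes were called between the genotypes in the main fit. None of the 9 genes was called in Sham-Fabp4CKO against Sham-Fabp4fl_fl by edgeR, where 16 of 14395 genes (0.111%) were called, all of them lower, and 10.2% had an unadjusted p under 0.05. DESeq2 and edgeR's exact test called 0 of the 9 as well. Of the 9, 2 had an unadjusted p under 0.05, and these were also the 2 with groups that did not overlap (14.9% of all genes). Ocln was at 12.1 ± 0.658 CPM in Sham-Fabp4CKO and 15.4 ± 0.449 CPM in Sham-Fabp4fl_fl (SD, n = 3; log2 fold change -0.35, SE 0.10, edgeR adjusted p = 0.427). F11r was at 10.8 ± 0.562 and 13.8 ± 2.37 CPM (log2 fold change -0.36, SE 0.15, edgeR adjusted p = 0.484). Cldn5 was at 28.4 ± 3.19 and 24.6 ± 2.07 CPM, overlapping (log2 fold change 0.20, SE 0.11, edgeR adjusted p = 0.531). The log2 fold changes of the other 6 lay between -0.48 (Marveld2) and 0.18 (Cgn). Over all genes the count turned on Sham-Fabp4fl_fl replicate 3, without which 1531 genes were called higher and 1331 lower, but none of the 9. That library had a chi-square per gene of 62.2 and 47.6 against its mates, with 10.6 between them. By the second rule 7 of 7 choroid plexus markers were lower in Sham-Fabp4CKO, where 465 of 14395 genes tested were lower and 125 higher.

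Whether the response to ICH differed between the genotypes was tested as an interaction over all 12 libraries. None of the 9 genes passed the adjusted threshold, and 3 of 15089 genes (0.0199%) did, while 9.94% had an unadjusted p under 0.05. This total turned on ICH-Fabp4CKO replicate 2, without which 260 genes were called with a higher and 111 with a lower response. Cldn5 was at rank 7 of 15089 by p, with a response 2.41 lower on the log2 scale in Fabp4CKO (value -2.41, SE 0.36, edgeR adjusted p = 0.0687). The Cldn5 adjusted p was 0.0265, 0.0246 and 0.0249 without ICH-Fabp4fl_fl replicate 1, ICH-Fabp4fl_fl replicate 3 and ICH-Fabp4CKO replicate 2, up to 0.243 with another library left out, and 0.0878 without both libraries that stood apart (log2 difference -2.04). DESeq2 gave it 2.42e-06.

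By the second rule 5 of the 9 genes were counted in the interaction, 4 with a lower and 1 with a higher response in Fabp4CKO, against 3.29% and 4.61% of all genes. Besides Cldn5 they were Ocln (-0.95, SE 0.28, edgeR adjusted p = 0.325), Jam2 (-0.78, SE 0.24, edgeR adjusted p = 0.33), Esam (-1.35, SE 0.41, edgeR adjusted p = 0.329) and, in the other direction, Cgn (1.80, SE 0.71, edgeR adjusted p = 0.434). F11r had a difference in response near 0 (-0.02, SE 0.32, edgeR adjusted p = 0.99), as its separate fold changes of 4.53 and 4.61 show. The differences for Tjp1 (-0.37), Cldn12 (-0.17) and Marveld2 (-0.20) were within 2 standard errors of 0. The interaction, the genotype comparison after ICH and the comparison in Fabp4fl_fl mice share the ICH-Fabp4fl_fl libraries, so they are not separate evidence.

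To set the junction genes beside the endothelial signal of the same library, the mean log2 CPM of the 12 endothelial markers (Cdh5, Pecam1, Tie1, Tek, Erg, Egfl7, Robo4, Ptprb, Emcn, Eng, Flt1 and Kdr) was subtracted from the log2 CPM of each gene. On this relative scale 7 of the 9 genes differed between 6 ICH and 6 sham libraries (exact two-sided permutation test, adjusted over all genes). So did 80.9% of 15089 genes, 72.3% lower and 8.55% higher, with a median difference of -1.28, as the endothelial reference itself rose after ICH. Esam and F11r were higher relative to the markers, by 0.30 (exact permutation, adjusted p = 0.00384) and 0.86 (exact permutation, adjusted p = 0.00669), but neither call held with Cdh5 alone as the reference, where Esam was at -0.20 (exact permutation, adjusted p = 0.111) and F11r at 0.36 (exact permutation, adjusted p = 0.181). Ocln (-1.05), Tjp1 (-0.64), Jam2 (-0.78), Cldn12 (-2.17) and Cgn (-2.27) were lower, with adjusted p-values of 0.00384 to 0.012 (exact permutation).

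Cldn5 did not differ on this scale when the genotypes were pooled (-0.08, exact permutation, adjusted p = 0.762), nor did Marveld2 (-0.0097, adjusted p = 0.974 by the exact permutation test). With Cdh5 alone as the reference the pooled Cldn5 value was -0.57 and passed the threshold narrowly (exact permutation, adjusted p = 0.0498). Relative to the 12 markers, the pooled value of Cldn5 joined opposite signs. Its level relative to the markers was 0.27 ± 0.14 in Sham-Fabp4fl_fl and 0.85 ± 0.12 in ICH-Fabp4fl_fl, but 0.62 ± 0.11 in Sham-Fabp4CKO and -0.10 ± 0.16 in ICH-Fabp4CKO (log2 ratios, SD, n = 3). The ICH groups did not overlap with their sham groups in either genotype. The difference was 0.57 in Fabp4fl_fl and -0.72 in Fabp4CKO, each with p = 0.1 by the exact permutation test, the smallest p that 3 against 3 libraries allow. The sham groups did not overlap each other either, at 0.12 to 0.40 in Sham-Fabp4fl_fl and 0.52 to 0.74 in Sham-Fabp4CKO. Fabp4CKO against Fabp4fl_fl was thus 0.35 in sham tissue and -0.94 after ICH, and both values enter the contrast of the responses.

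**Figure D3:**
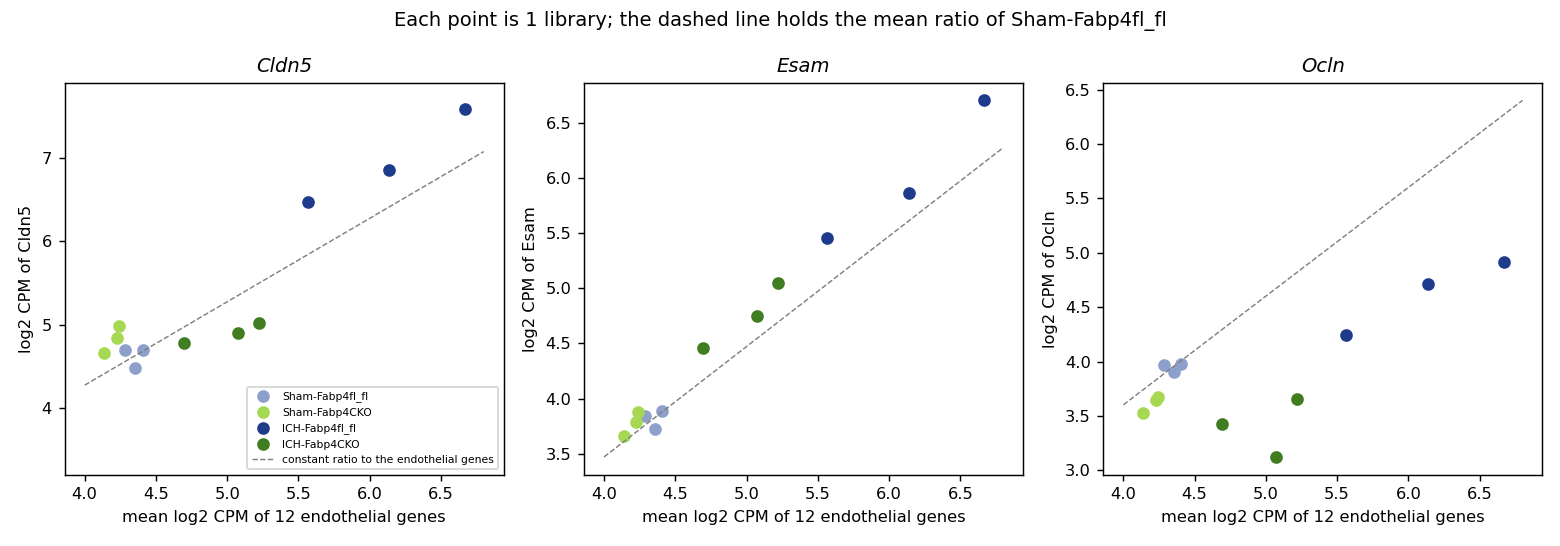
log2 CPM of Cldn5, Esam and Ocln (vertical axes) against the mean log2 CPM of 12 endothelial markers (horizontal axis); each point is 1 library, and the dashed line keeps the mean ratio of Sham-Fabp4fl_fl. The ICH-Fabp4fl_fl points lie above the line for Cldn5 and the ICH-Fabp4CKO points below it, while Ocln lies below the line in all 6 ICH libraries.

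The difference between the genotypes in this relative response of Cldn5 was -1.29 (exact permutation of genotype within ICH and within sham, 400 regroupings, p = 0.005, the smallest they can give). Adjusted over all 15089 genes the exact permutation p was 0.294, and 11.9% of genes had an unadjusted p under 0.05. With each library left out in turn, the Cldn5 value stayed between -1.38 and -1.22, and it was -1.21 without both libraries that stood apart. Taking each of the 12 markers alone as the reference gave values from -1.70 to -0.99, and of these Kdr gave the highest p (0.07, exact permutation). Adjusted over all genes, these exact permutation p-values ran from 0.114 (Eng) to 0.811 (Emcn). The number of genes with an unadjusted p under 0.05 ran from 453 (Erg) to 7333 (Kdr) of 15089. The size of each genotype's own response depended on the reference. In Fabp4fl_fl the Cldn5 response was positive with 12 of 12 single markers but near 0 with Cdh5 (0.033), Pecam1 (0.078) and Tie1 (0.12), and in Fabp4CKO it was negative with 11 of 12 and 0.085 with Flt1. F11r had a difference of 0.97 in the other direction, with relative responses of 0.38 in Fabp4fl_fl and 1.35 in Fabp4CKO (exact permutation p = 0.015, adjusted p = 0.294). The median relative response over all genes was -1.77 in Fabp4fl_fl and -0.80 in Fabp4CKO, so that the F11r difference was about that of the median gene, while the Cldn5 difference had the opposite sign. For Ocln the responses were close, -1.10 and -1.004 (difference 0.10, exact permutation p = 0.705). The lower CPM of Ocln in ICH-Fabp4CKO went with a relative level of -1.59 ± 0.34 in ICH-Fabp4CKO beside -1.50 ± 0.22 in ICH-Fabp4fl_fl (log2 ratios, SD, n = 3). Esam had a difference of -0.23 (exact permutation p = 0.065) and Jam2 one of 0.23 (exact permutation p = 0.68).

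**Figure D4:**
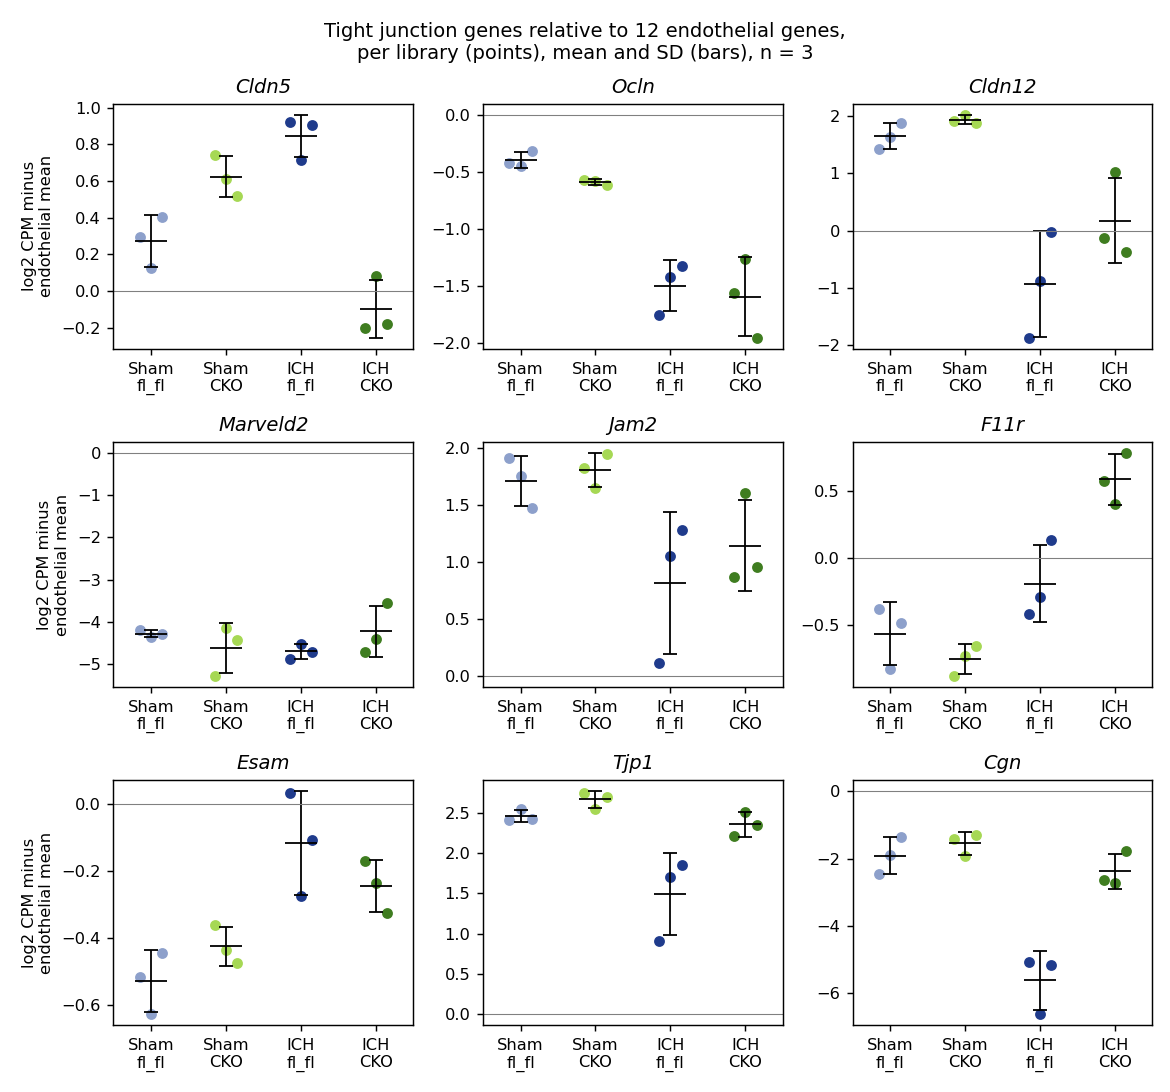
log2 CPM of each of the 9 genes minus the mean log2 CPM of the 12 endothelial markers (vertical axes; the gray line is 0) in the 4 groups; points are libraries and bars the mean and SD of 3. Cldn5 is highest in ICH-Fabp4fl_fl (0.71 to 0.92) and lowest in ICH-Fabp4CKO (-0.20 to 0.082), whereas Ocln is low in both ICH groups.

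Likeness to Cldn5 was described by the Pearson correlation of log2 CPM over the 12 libraries after the group means were removed, so that it reflects how libraries of a group deviate together, and so also their shared dissection, depth and quality. Esam had the second highest value of all genes (r = 0.965), and the other leading genes were Ist1 (0.983), Ccnl2 (0.952), 1810037I17Rik (0.945) and Coq8b (0.941). Among the remaining junction genes Ocln had 0.769, F11r 0.634, Cgn 0.526, Marveld2 0.334 and Tjp1 0.22. Jam2 (-0.242) and Cldn12 (-0.581) were negative. With the group means kept in, Jam2 was at 0.856 and Cgn at -0.736, both with the opposite sign, Cldn12 at -0.578 and Esam at 0.93. No test was made of these values.

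The other genes of the tight junction were taken from a list of 50, of which 47 were in the table. After ICH in Fabp4fl_fl mice 8 of the 40 tested rose and 11 fell, with a median log2 fold change of -0.27, where 26.2% of all genes tested rose and 19.3% fell. By the smallest p the leading genes that rose were Micall2 (log2 fold change 2.45, adjusted p = 0.00104), a regulator of junction recycling, Lsr (1.93, adjusted p = 0.00192), encoding the tricellular protein angulin-1, and Cldn11 (1.52, adjusted p = 0.00272), the claudin of myelin. Those that fell were Cldn2 (-5.36, adjusted p = 0.00125), a pore-forming claudin of choroid plexus epithelium, Magi1 (-1.12, adjusted p = 0.00156), a scaffold protein, and Cldn1 (-1.62, adjusted p = 0.00856). Cldn2 moved with the choroid plexus markers, which were high in Sham-Fabp4fl_fl, and Cldn11 is itself in the oligodendrocyte list, whose part in these values was not tested.

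In Fabp4CKO mice 5 of 36 of these genes rose after ICH and 7 fell, with a median of -0.20, where 24.5% of all genes tested rose and 11.1% fell. Micall2 was among those that rose (2.07, adjusted p = 0.00915), and Magi1 (-0.96, adjusted p = 0.0206) among those that fell. Between the genotypes after ICH 0 of 36 were called by edgeR, with 0 higher and 5 lower by the second rule (4.4% and 4.43% of all genes), and in the interaction 0 of 41, with 1 higher and 4 lower by the second rule (4.61% and 3.29%). In sham tissue 1 of 39 was called, Cldn2, which was lower in Sham-Fabp4CKO (log2 fold change -4.14, adjusted p = 0.0328).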

How the data were processed

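Libraries of 12 mouse brain samples were compared by the groups given in the labels. The authors deposited 1 table of estimated counts per gene; Bowtie2 2.2.8, HISAT2, StringTie 1.3.1 and DESeq2 are named in the submitters' processing notes, and the genome build and counting settings are not given in the sources used here. Between 7.36% and 8.69% of the values per library were not whole, so counts were rounded, which matters only for low genes such as Marveld2. Every column of the deposited counts was used. Genes were filtered with filterByExpr (minimum count 10, minimum total 15) and fitted with TMM and the quasi-likelihood test of edgeR 4.0.16 (R 4.3.3) on the 6 libraries of each comparison, or on all 12 for the interaction, with Benjamini-Hochberg adjustment over all genes tested and calls at an adjusted p under 0.05. CPM used the TMM-scaled library sizes, and log2 CPM a prior count of 2. The exact permutation tests of relative values were adjusted over all genes, not over the 9 as planned. Alternatives were DESeq2 1.42.0, edgeR's exact test, other scalings and filters, a replicate block and leaving out libraries; the tests of relative values between genotypes, the single reference genes and the fits without the libraries that stood apart were added after seeing the data. Scripts were tested on simulated data. The 9 genes and all lists were chosen with earlier results of these data known. Named were all 9 genes, the 5 genes most like Cldn5 and, of the other junction genes, the 3 called genes with the smallest p in each direction. No pair of libraries of a group agreed within sampling noise. The depth of at least 15650822 counts left Marveld2 and Cgn with 8 to 175 counts, where counting error is large.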

Additional observations from a re-analysis of the deposited data

Results flagged for a closer look

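The response of Cldn5 to ICH relative to 12 endothelial markers differed between the genotypes: it was 0.57 in Fabp4fl_fl and -0.72 in Fabp4CKO on the log2 scale, a difference of -1.29 (exact permutation p = 0.005, adjusted over all genes 0.294). It is listed here because the response relative to the 12-marker mean had opposite signs in the 2 genotypes, in 3 of 3 libraries of each ICH group against all libraries of the matching sham group. The signs depended on the reference: with single markers the Fabp4fl_fl response was as low as 0.033 (Cdh5), and the Fabp4CKO response was 0.085 with Flt1, while the difference stayed negative with 12 of 12 markers. These 12 references share the same Cldn5 values and are not separate evidence. Each marker also had a less negative interaction by edgeR (-1.44 to -0.68) than Cldn5 (-2.41). The test of this difference was added after seeing the data. The difference also holds the sham groups, which were 0.35 apart on this scale (Sham-Fabp4CKO against Sham-Fabp4fl_fl), beside -0.94 between the ICH groups. With 3 libraries per group, Dixon's test for an outlying value was not applied to any gene.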

How the results depend on the processing

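Over the fits with another tool, scaling, filter or block and with single libraries left out, 736 values kept their direction and their side of the threshold, 34 lost a call, 20 gained one, and 42 changed sign. Of the 9 genes called after ICH in Fabp4fl_fl, 4 to 8 were called with single libraries left out. Of the 4 called in Fabp4CKO, 1 to 5 were called with single libraries left out, 2 with total counts in place of TMM, 3 with a replicate block, where Tjp1 had an adjusted p of 0.0561, and 5 each, Marveld2 being gained, with DESeq2, edgeR's exact test and the fit of all 12 libraries. Between the genotypes after ICH, where edgeR's quasi-likelihood test called 0, DESeq2 called 4 (Cldn5, Ocln with an adjusted p of 0.00142, Jam2 with 0.00303 and Esam with 0.0221), edgeR's exact test 3 (Cldn5 with 2.92e-06, Ocln with 0.0105 and Esam with 0.0373) and the fit of all 12 libraries 4 (Cldn5 with 0.0066, Ocln with 0.0195, Jam2 with 0.0342 and Esam with 0.0406); over all genes the last called 154 higher and 208 lower. In the interaction DESeq2 called 1 of the 9, Cldn5, with 183 higher and 83 lower genes in all, and 0 to 1 were called with single libraries left out. The cause of these differences between tools was not tested.

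Signs turned in values that were not called, with 1 exception, Esam relative to Cdh5 alone. Cgn in Fabp4CKO after ICH was -0.052 with total counts and -0.014 with the block (-0.38 to 0.33 with single libraries left out). Cldn12 between the genotypes after ICH was -0.017 with relative log expression scaling and with DESeq2, -0.034 with total counts, -0.025 with the block, -0.043 with all 12 libraries and -0.10 without the pair of libraries that stood apart (-0.33 to 0.21 with single libraries left out). In the interaction F11r was 0.039 with relative log expression scaling, 0.0050 with total counts, 0.040 with DESeq2, 0.029 with no filter and 0.11 without both libraries that stood apart, and Marveld2 was 0.22 without both; with single libraries left out F11r ranged from -0.16 to 0.21, Marveld2 from -0.71 to 0.13 and Cldn12 from -0.50 to 0.044. In sham tissue, with single libraries left out, Jam2 ranged from -0.21 to 0.058, Cgn from -0.039 to 0.46 and Tjp1 from -0.018 to 0.097. Relative to Cdh5 alone Esam was -0.20 and not called, against 0.30 and called relative to all 12 markers; relative to all 12 markers Marveld2 was 0.070 with a prior count of 0.5 (-0.19 to 0.073 with single libraries left out) and Cldn5 ranged from -0.18 to 0.039.

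The replicate numbers did not pair the samples: deviations of same-numbered libraries from their group means correlated at 0.311, -0.168 and -0.575 between the ICH groups and at 0.197, 0.0228 and 0.127 between ICH and sham in Fabp4fl_fl. With the replicate block 9, 3, 0, 0 and 0 of the 9 genes were called in the 4 comparisons and the interaction. With 3 libraries per group, calls near the threshold hang on single libraries, and depth limits Marveld2 and Cgn most.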

Other observations

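Adherens junctions lie beside tight junctions and hold endothelial cells together through VE-cadherin, the product of Cdh5, and catenins. Of 13 genes listed for them, 6 rose and 2 fell after ICH in Fabp4fl_fl by edgeR's quasi-likelihood test, where 45.6% of all genes tested were called. By the smallest adjusted p those that rose were Cdh5 (log2 fold change 2.43, adjusted p = 0.00119), Pecam1 (2.39, adjusted p = 0.00165) and Ptprb (1.65, adjusted p = 0.00187), all 3 of which are also among the 12 endothelial markers. Nectin1 (-0.73, adjusted p = 0.0135) and Ctnna2 (-0.59, adjusted p = 0.0258), which neurons also use, fell. In Fabp4CKO 6 rose and 2 fell as well, where 35.6% of all genes were called. Between the genotypes after ICH 0 of 13 were called, with 0 higher and 3 lower at a fold of 1.5 or more with an unadjusted p under 0.05 (4.4% and 4.43% of all genes). Cdh5 rose by 2.43 in Fabp4fl_fl, close to Cldn5 at 2.44, and by 1.35 in Fabp4CKO (adjusted p = 0.0204), where Cldn5 was at 0.09.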
